A study of Mus musculus with 9 samples.

Results

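The genes examined here are 9 genes of MHC class I antigen presentation, B2m, H2-K1, H2-D1, Tap1, Tap2, Tapbp, Psmb8, Psmb9 and Nlrc5. They were chosen by name and found through their Ensembl identifiers among the 46078 genes listed for cultured muscle cells and the 38293 listed for muscle tissue. RNA was sequenced from GAS, the gastrocnemius muscle of untreated female C57BL/6 mice (C57Bl6/J in the methods of the study) aged 8 to 12 weeks (3 replicates), and from primary myoblasts (MB), the proliferating progenitors of muscle fibres (2 replicates). Myotubes (MT, 2 replicates) were the same kind of cells after 3 days in differentiation medium with little serum, and MB_lac (2 replicates) were MB given 10 mM sodium-L-lactate overnight. All cells were of strain C57BL/6, and control MB and MT received PBS in place of lactate. GAS is whole tissue with the vessels, connective tissue and immune cells it contains, whereas MB and MT are cultures in which the purity of the isolation was not measured.

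MHC class I molecules display peptides from inside the cell to CD8 T cells. The heavy chain, encoded in this strain mainly by H2-K1 and H2-D1, pairs with the light chain beta-2 microglobulin (B2m). Peptides are cut by the proteasome, in which the interferon-induced catalytic subunits Psmb8, Psmb9 and Psmb10 can replace Psmb5, Psmb6 and Psmb7, and are pumped into the endoplasmic reticulum by the transporter Tap1-Tap2, to which tapasin (Tapbp) tethers the empty heavy chain. Nlrc5 is the transactivator of these genes and acts at a promoter module, termed SXY, that binds RFX, CREB/ATF and NF-Y factors. Healthy muscle fibres are known for low class I levels, which rise in inflammatory muscle disease.

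On mm10, 7 of the 9 genes lay on chromosome 17 in the MHC region, within 1352 kb. H2-K1 was at chr17:33996017-34000347 on the minus strand, H2-D1 at chr17:35262730-35267499 and Tapbp at chr17:33915899-33929292, both on the plus strand. Psmb9 (chr17:34181987-34187764), Tap1 (chr17:34187553-34197225), Psmb8 (chr17:34197721-34201454) and Tap2 (chr17:34203527-34216321) formed a cluster of 34.3 kb. In this cluster Tap1 and Psmb9 ran in opposite directions and their annotated exons shared 212 bases. B2m was at chr2:122147686-122153083 and Nlrc5 at chr8:94434356-94527272, both on the plus strand. All 9 are annotated as protein-coding.

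RefSeq (GRCm38.p6, the same assembly) gave promoter windows of 300 bases, from 250 before to 50 after the start, for 7 of the 9 genes. In 3 of them, B2m, H2-K1 and H2-D1, the CREB/ATF motif TGACG was followed by the reversed CCAAT box ATTGG, with 25 bases from the first letter of one to the first letter of the other. This arrangement, with its spacing read from these 3 genes, occurred in 31 of 32851 windows (0.0944%), among them that of the class I gene H2-M3. The share includes the windows of the 3 genes and is a description, not a test. The stretches are shown because the SXY module and the kappa-B and interferon elements of class I genes are known from this part of the promoter. Capitals mark both of these motifs and the kappa-B site bound by NF-kB. In B2m alone, capitals also mark the searched form of the interferon-stimulated response element, GAAA repeated after any 2 bases. The stretches were taken from chr2:122147538-122147648 (plus strand), chr17:34000349-34000468 (minus strand) and chr17:35262913-35263032 (plus strand, inside the span that GENCODE gives to H2-D1).
B2m: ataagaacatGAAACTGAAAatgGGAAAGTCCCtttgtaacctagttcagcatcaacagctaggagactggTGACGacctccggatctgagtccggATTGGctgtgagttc
H2-K1: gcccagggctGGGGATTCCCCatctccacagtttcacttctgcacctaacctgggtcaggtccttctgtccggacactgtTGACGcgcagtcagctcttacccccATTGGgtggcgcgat
H2-D1: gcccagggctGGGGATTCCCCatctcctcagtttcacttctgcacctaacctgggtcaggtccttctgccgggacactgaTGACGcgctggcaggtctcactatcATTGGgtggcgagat

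The H2-K1 and H2-D1 stretches were identical at 108 of 120 positions (90.0%). A kappa-B site was found in the windows of B2m, H2-K1 and H2-D1, and in 8.46% of all windows. The searched form of the interferon-stimulated response element was found on either strand in 3.44% of all windows and, of the 7 genes, in B2m only. Forms with other letters or spacing were not searched for, so the other genes cannot be said to lack the element. TGACG, present in 20.8% of all windows, was also found for Tap1 and Psmb9, whose windows overlap and share the same letters on opposite strands. CCAAT was present in 37.4% of all windows and in 6 of the 7, Psmb8 being the exception. These are matches of letters, and binding was not measured here.

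The libraries of cultured cells held between 5198247 and 10839516 counts and those of GAS between 19307793 and 19941574. A count of 3 corresponded to 0.223 to 0.533 CPM (counts scaled to library size and normalised for library composition) in the cultured cells and to at most 0.156 CPM in GAS, which covers counting error only. MT replicate 1 stood apart, with counts on 28599 genes where the other cultured libraries had 15548 to 17965. The cultured cells carried the labelled state: of 11 muscle genes, 8 were higher in MT than in MB, among them Myog, Myh3 and Ckm, and Pax7, the stem cell marker, was lower. GAS was sequenced from poly(A) RNA and the cultures by Smart-seq2, so GAS and culture were not tested against each other.

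In GAS, the light chain and both heavy chains were well expressed, Tapbp and Tap2 less so, and Psmb8, Psmb9, Tap1 and Nlrc5 were at an RPKM of about 1 or below. B2m had an RPKM (CPM per kb of exon) of 78.4, 72.9 and 75.9 in the 3 libraries, with a mean of 75.8 ± 2.7 (SD, n = 3). This placed it at rank 454 of all genes, at the 95.4th percentile of the 9874 genes with a mean RPKM over 1. H2-D1 had an RPKM of 27.9 ± 4.0 (rank 1179) and H2-K1 of 20.7 ± 1.7 (rank 1517, both SD, n = 3), and the lowest H2-D1 library (23.3) was above the highest H2-K1 library (21.7).

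Tapbp followed in GAS with an RPKM of 6.75 ± 0.88 and Tap2 with 2.17 ± 0.23, at ranks 3787 and 7412. Psmb8 was at 1.02 ± 0.11, just inside the genes over 1. Psmb9 at 0.489 ± 0.084 and Tap1 at 0.451 ± 0.072 overlapped each other and were not distinguishable beyond their spread. Nlrc5, the transactivator, was the lowest at 0.162 ± 0.027 (all SD, n = 3), from 23 to 32 counts per library. The Psmb9 and Tap1 values may include reads of the other gene, since their exons overlap on opposite strands and the handling of strand by the authors is not stated in the sources used here.

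**Figure D1:**
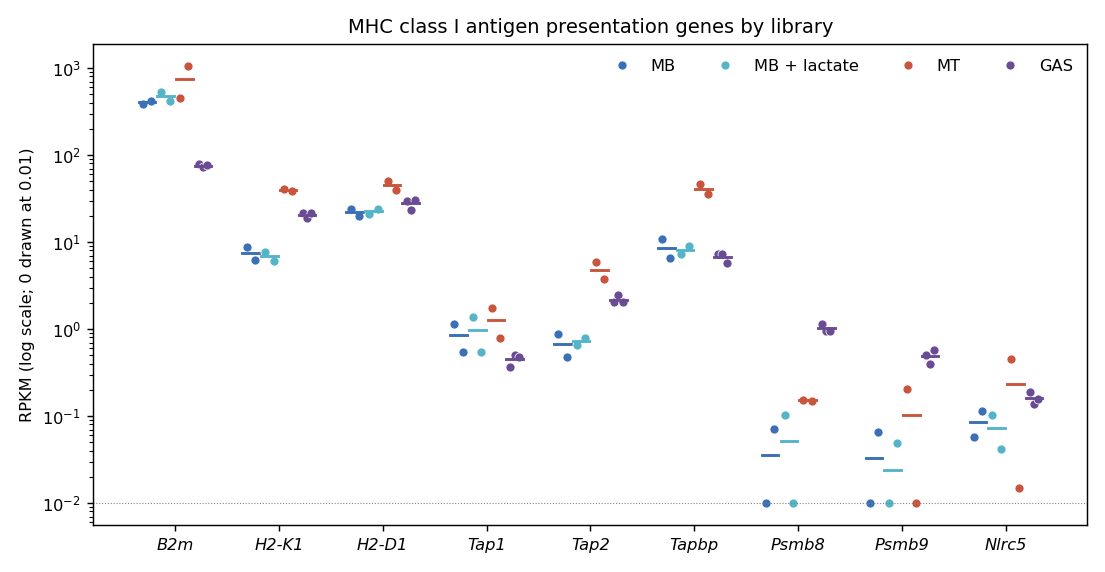
RPKM of the 9 genes in each of the 9 libraries on a log scale, with values of 0 drawn at 0.01. Points are libraries and horizontal lines are group means. B2m lies between 72.9 and 78.4 in GAS and at 390 or more in every cultured library, H2-K1, Tap2 and Tapbp are higher in both MT libraries than in both MB libraries, and Psmb8 is at 0.952 or more only in GAS.

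The order of the genes differed between groups. In MB, B2m (404 ± 19 RPKM, SD, n = 2) was followed by H2-D1 (22.2 ± 3.0), and then by Tapbp (8.63 ± 3.04) and H2-K1 (7.44 ± 1.81), whose libraries overlapped. Tap1 and Tap2 were at 0.846 ± 0.418 and 0.677 ± 0.281 RPKM and overlapped too. In MT, H2-D1 (44.7 ± 7.6), Tapbp (40.6 ± 7.5) and H2-K1 (39.5 ± 1.2) overlapped one another below B2m (757 ± 428), and Tap2 (4.80 ± 1.51) was above Tap1 (1.26 ± 0.66). Psmb8, Psmb9 and Nlrc5 had a mean RPKM of at most 0.235 in every cultured group.

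The comparison of MT with MB addressed how gene expression changed with differentiation. Of the 9 genes, 6 passed the filter on low counts, and 3 of these, H2-K1, Tap2 and Tapbp, were higher in MT at an adjusted p under 0.05 and an absolute log2FC over 0.5 (edgeR's quasi-likelihood test, Benjamini-Hochberg adjustment over 12921 genes). None was lower. Among all genes tested, 11% were called higher and 6.86% lower. The median log2FC of the 6 genes was 1.62, against 0.07 over all genes, and for 5 of the 6 both MT libraries were above both MB libraries, which held for 32.9% of all genes. The labels call the samples biological replicates without naming separate isolations, so the p-values measure the spread between these samples.

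H2-K1 was at 119 and 114 CPM in the MT libraries and at 25.6 and 18.1 CPM in the MB libraries. The MT values lay close together and far above MB. The log2FC was 2.40 (SE 0.46, adjusted p = 0.0062 by edgeR's quasi-likelihood test). H2-D1, the other classical heavy chain, was at 129 and 101 CPM in MT and at 62.6 and 51.7 CPM in MB, again without overlap. Its log2FC of 1.01 (SE 0.44) did not pass the adjusted threshold (adjusted p = 0.136, edgeR), and its 95% interval ran from 0.05 to 1.98. H2-K1 as a ratio of H2-D1, on the RPKM scale, was 0.807 and 0.984 in MT, 0.359 and 0.307 in MB and between 0.700 and 0.803 in GAS.

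B2m, the light chain, was at 391 and 912 CPM in MT and at 336 and 359 CPM in MB. Both MT libraries were higher, but they differed from each other by more than MT replicate 1 differed from MB. The log2FC of 0.88 (SE 0.53) was not called (adjusted p = 0.277, edgeR), with a 95% interval from -0.29 to 2.05. It was 1.33 without MT replicate 1 and 0.07 without MT replicate 2. The summed RPKM of H2-K1 and H2-D1 amounted to 19.9% and 7.35% of that of B2m in MT, to 8.45% and 6.28% in MB, and to 65.3%, 57.7% and 68.9% in GAS.

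Tap2 and Tap1 form the peptide transporter together. Tap2 was at 22.2 and 14.1 CPM in MT and at 3.31 and 1.81 CPM in MB, with no overlap and a log2FC of 2.82 (SE 0.67, adjusted p = 0.0166, edgeR). Tap1 was at 9.46 and 4.32 CPM in MT and at 6.25 and 3.01 CPM in MB. These groups overlapped, and the log2FC of 0.58 (SE 0.77) was not called (adjusted p = 0.641, edgeR), with an interval from -1.11 to 2.27. The ratio of Tap2 to Tap1 in RPKM was 3.40 and 4.73 in MT, 0.767 and 0.869 in MB, and between 4.32 and 5.47 in GAS. Tap2 shares 533 exonic bases, 14.1% of its length, with the antisense gene Gm15821, which had 37 counts in MT replicate 1 and 0 in every other cultured library.

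Tapbp, which holds heavy chains at the transporter until a peptide binds, was at 167 and 128 CPM in MT and at 39.1 and 23.5 CPM in MB. Both MT libraries were well above both MB libraries, and the log2FC was 2.23 (SE 0.49, adjusted p = 0.0109, edgeR). Its neighbour Zbtb22 shares 149 exonic bases with it on the same strand and had 45 to 141 counts in these libraries, against 195 to 2238 for Tapbp.

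Psmb8, Psmb9 and Nlrc5 were too low in culture for the test. Psmb8 had 7 and 4 counts in MT and 0 and 2 in MB, a ratio of 4.25 on the pooled, depth-scaled counts with a 95% interval from 0.928 to 39.5. Psmb9 had 10 and 0 counts in MT and 0 and 2 in MB, a ratio of 3.86 (0.824 to 36.3). Both intervals cover counting error only and include no difference.

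Nlrc5 had 52 and 1 counts in MT and 4 and 8 in MB. Its pooled ratio was 3.41 (1.80 to 7.02, counting error only), yet 52 of the 53 MT counts came from MT replicate 1 and MT replicate 2 was below both MB libraries. In MT replicate 1, Nlrc5 had 6.12 and Psmb9 2.73 counts per kb of exon. The 3854 protein-coding genes that had counts in this library and in no other cultured one had a median of 3.23 counts per kb, with 90% of them between 0.331 and 26.5. The lincRNA 9330175E14Rik, antisense to Nlrc5, had 18 counts in MT replicate 1 and 0 in the other cultured libraries. When all genes with at least 1 count were tested, the adjusted p was 0.739 for Psmb8, 0.797 for Psmb9 and 0.713 for Nlrc5 (edgeR).

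**Figure D2:**
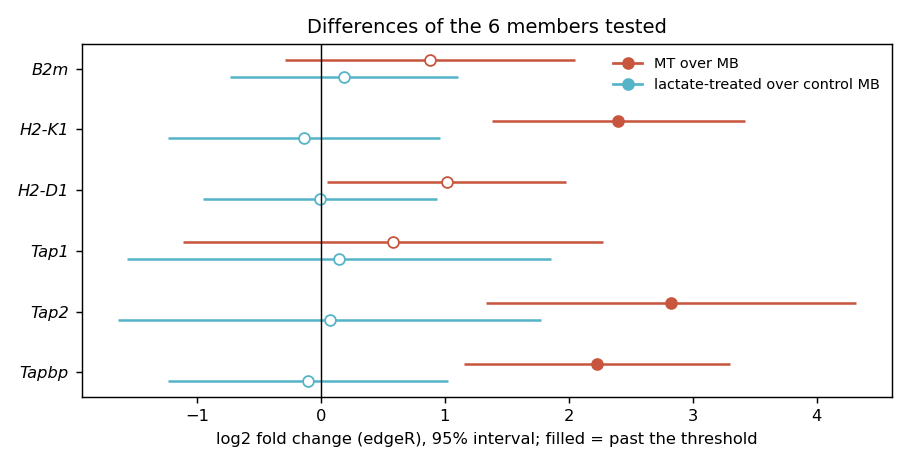
log2 fold change, with its 95% interval, of the 6 genes tested, for MT over MB and for lactate-treated over control MB. Filled points passed the threshold. In MT over MB, H2-K1 (2.40), Tap2 (2.82) and Tapbp (2.23) are filled, and every lactate value lies between -0.14 and 0.19 with an interval that includes 0.

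The calls depended on MT replicate 1. Without it H2-K1 alone remained past the threshold, while Tap2 (log2FC 2.37, adjusted p = 0.0935) and Tapbp (1.95, adjusted p = 0.0706, edgeR) kept their direction and were no longer called, and the Tap1 value turned to -0.19. This fit has 1 MT library, which is assumed to vary as the MB pair does. Some markers of other cells moved with the comparison. The summed CPM of 7 fibroblast markers was 24036 and 14565 in MT and 474 and 234 in MB. Of these markers, 3 of the 4 tested were called higher (Col1a1, Col3a1 and Dcn), and Pdgfra was not (log2FC 1.46, adjusted p = 0.270, edgeR). Among pericyte and smooth muscle markers, 2 of 3 tested were called higher (Abcc9 and Notch3), and Rgs5 was not (log2FC 0.71). Over all genes tested, 11% were called higher. Abcc9, Col1a1 and Dcn did not pass the filter in the comparison of MB_lac with MB, so here they passed it through MT, where they are high. The counts of calls in these marker lists are a description with no weight as support. The 12 leukocyte markers summed to 25.2 and 5.47 CPM in MT and 2.70 and 3.01 in MB. Itgam, the only one of them tested, passed the filter only through MT and was called higher (log2FC 4.23, adjusted p = 0.0188, edgeR). It had 55 and 24 counts in MT and 1 and 2 in MB, whereas Ptprc had 60 counts in MT replicate 1 and 0 in the other cultured libraries. Without MT replicate 1, Itgam was at 3.91 (adjusted p = 0.102), and it was not called without MB replicate 1 (0.541) or MB replicate 2 (0.390, edgeR) either. The 8 endothelial markers summed to 24.05 and 4.20 CPM in MT against 7.60 and 4.10 in MB. Egfl7, the only endothelial marker tested, had a log2FC of -0.22 and was not called. The part of these cells, and of the broad detection in MT replicate 1, in the class I result was not tested. In bulk RNA, a change in the number of cells of a type and a change in the RNA per cell cannot be told apart.

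Of the 16 other class I heavy chain genes listed, 15 were in the files and 3 were tested. H2-T23 encodes the mouse Qa-1 molecule that presents to NK receptors. It was at 16.2 and 15.1 CPM in MT and at 0.98 and 0.60 CPM in MB. It was called higher (log2FC 4.28, SE 0.73, adjusted p = 0.0035, edgeR), and its log2FC without MT replicate 1 was 4.15. With 5 to 8 counts in the MB libraries, H2-T23 was too low there for the filter and passed it only through MT. Its call therefore has no weight as support. H2-T22 (log2FC 1.64, adjusted p = 0.0676) and H2-M3, which presents formylated peptides (0.75, adjusted p = 0.427), were not called. Because heavy chain genes are similar in sequence and the treatment of reads with several alignments is not stated, the counts of H2-K1, H2-D1 and the others were also summed. The sum was higher in MT with a log2FC of 1.59 (adjusted p = 0.0375, edgeR).

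The remaining parts of the pathway were not called. None of 8 genes of peptide loading and trimming passed the test in either direction, with a median log2FC of 0.23. Calr and Canx, the chaperones of newly made heavy chains, had log2FC values of -0.45 and 0.27, Pdia3, which joins the loading complex, 0.85, the trimming peptidase Erap1 0.79 and the tapasin-related Tapbpl 1.16, all with an adjusted p of at least 0.303. Of 20 genes of the proteasome core, its maturation factor and its activators, 0 were called and 17 had a negative log2FC, with a median of -0.52. Psmb5, Psmb6 and Psmb7, the constitutive catalytic subunits, were at -0.58, -0.15 and -0.22, and Psmb10, the only immunoproteasome subunit to pass the filter, at -0.55 (adjusted p = 0.479). The activator subunits Psme1 (-0.40) and Psme2 (0.86) had values of opposite sign. Of 11 tested genes of the RFX, CREB/ATF, NF-Y and NF-kB factors, 0 were called, with a median log2FC of -0.32, and Rfx5 was at 0.87 (adjusted p = 0.534, all edgeR).

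Interferon is the best known inducer of class I genes. None of 7 interferon ligand genes had more than 3 counts in any of the 9 libraries. Of 14 genes of interferon signaling, 2 were called higher in MT and 1 lower, against 11% and 6.86% of all genes tested. These counts are close to the shares over all genes. Those higher were Ifngr2 (log2FC 1.50, adjusted p = 0.0350), a chain of the interferon gamma receptor, and Socs3 (1.64, adjusted p = 0.0408). Socs1, an inhibitor of the pathway, was lower (-2.17, adjusted p = 0.0177, all edgeR). Without MT replicate 1 none of the 14 was called, though Socs1 (-2.20), Socs3 (1.50) and Ifngr2 (1.68) kept values of this size. Ifngr2 was not called without any one of the 4 libraries (adjusted p 0.0584 to 0.232, edgeR), and Socs3 was not called without MT replicate 2 or MB replicate 2 either. Socs1 was at 6.92 and 7.25 CPM in MT and at 35.3 and 28.1 CPM in MB. The transcription factors Stat2 (1.73, adjusted p = 0.0506), Irf1 (0.21, adjusted p = 0.827) and Irf2 (-0.02, adjusted p = 0.984) did not pass.

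Of 26 interferon-induced genes, 13 passed the filter and 8 of these were called higher in MT. Of the 8, Mx2, Oasl2, Xaf1, Gbp2 and Irf7 had 3 counts or fewer in each MB library and so passed the filter only through MT, where they are high. Igtp was also too low for the filter in both MB libraries and passed it only through MT. The count of 8 is a description with no weight as support, and so is the call of Igtp. Ifi27 was at 121 and 142 CPM in MT and at 14.9 and 9.04 CPM in MB (log2FC 3.43, adjusted p = 0.0014), and the immunity-related GTPase Igtp was at 27.9 and 9.67 against 0.25 and 0.84 CPM (adjusted p = 0.0038, edgeR). Both MT libraries were above both MB libraries for these 2 genes. The antiviral genes Mx2 and Oasl2 had 0 counts in both MB libraries and were at least 5.39-fold and 11.4-fold higher in MT, against a limit of 3 counts per library. Gbp3 was also called. Without MT replicate 1, 5 were called, Gbp2, Ifit1, Ifi27, Igtp and Xaf1. The whole list summed to 314 and 307 CPM in MT, 60.4 and 76.2 in MB and 115 to 127 in GAS, where Gbp5 was not among the genes used here.

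**Figure D3:**
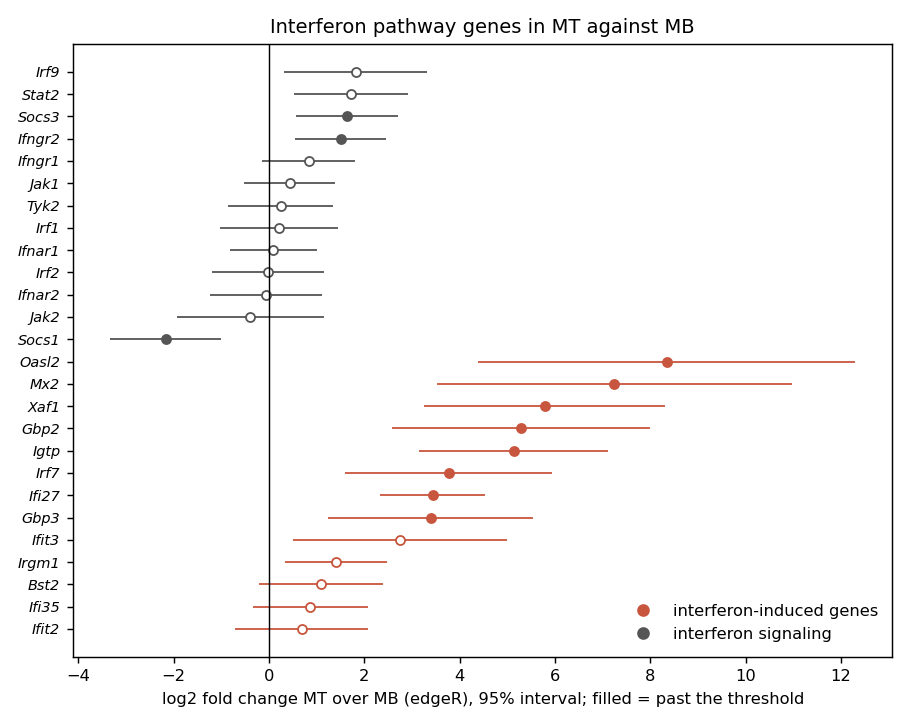
log2 fold change of MT over MB, with its 95% interval, for 13 tested genes of interferon signaling (grey) and the tested interferon-induced genes (red). Filled points passed the threshold. The 13 interferon-induced genes lie between 0.69 and 8.34 and 8 are filled, and the 13 signaling genes lie between -2.17 and 1.82. Fitted values of Mx2, Oasl2, Xaf1, Gbp2 and Irf7, at 3 counts or fewer in each MB library, depend on the prior count.

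Lactate was added to MB to ask whether it alters gene expression in the direction of differentiation. None of the 9 genes was called with lactate. Over all 11804 genes tested, 0 were called at an unadjusted p under 0.01 (edgeR's quasi-likelihood test), a background of 0%. At an adjusted p under 0.05, 0 were called in either direction. At an unadjusted p under 0.05, 5 passed, 2 higher and 3 lower. The smallest adjusted p was 0.99997 (edgeR), so small p-values were rarer than chance alone would give. The fit was thus conservative, and the lack of calls does not show that lactate left the 9 genes unchanged. The paper reports a small group of genes altered by lactate, under nominal criteria that it describes as less strict. The same cut on unadjusted p and log2FC was used here and called 0 genes. The cause of this difference was not tested. With the replicate number as a block, the SE of B2m was 0.24, against 0.38 without it. Without the control MB replicate 1, 2 genes passed the adjusted threshold, neither of them one of the 9.

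H2-K1 was at 22.8 and 18.0 CPM with lactate and at 25.6 and 18.1 CPM without. These ranges overlapped almost wholly, with a log2FC of -0.14 and a 95% interval from -1.23 to 0.96. H2-D1 was at 54.3 and 62.0 CPM against 62.6 and 51.7 CPM, a log2FC of -0.01 (-0.95 to 0.94). B2m was the only one of the 6 tested genes with both treated libraries (451 and 361 CPM) above both controls (336 and 359 CPM), though its lower treated library was hardly above the higher control. This separation held for 4.28% of all genes, and the log2FC of B2m was 0.19 (-0.73 to 1.11).

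For the peptide transporter and tapasin the intervals were wider or similar. Tap1 was at 7.55 and 3.02 CPM with lactate against 6.25 and 3.01 CPM (log2FC 0.15, interval -1.56 to 1.85). Tap2 was at 2.46 and 3.02 CPM against 3.31 and 1.81 CPM (0.07, -1.63 to 1.77). Tapbp was at 26.2 and 33.1 CPM against 39.1 and 23.5 CPM (-0.11, -1.24 to 1.02). All treated libraries of these 3 genes except that of Tap1 at 7.55 CPM lay within the control range. Differences of up to about the interval bounds were not detectable with 2 libraries per group. Psmb8, Psmb9 and Nlrc5 had 2, 1 and 7 counts in the treated libraries together and 2, 2 and 12 in the controls. No gene of the other lists was called with lactate, and the 5 interferon-induced genes tested lay between 0.07 and 0.65 on the log2 scale, with unadjusted p of at least 0.342 (edgeR).

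The share of immunoproteasome subunits was taken within each library, which does not depend on its normalisation. The share does depend on the exonic lengths, which join all annotated exons of a gene. From raw counts without length, the GAS means were 3.95% for Psmb8, 1.59% for Psmb9 and 3.55% for Psmb10. Psmb8 made up 1.20%, 1.06% and 0.984% of the summed RPKM of Psmb8 and Psmb5 in GAS, and Psmb9 0.813%, 0.673% and 0.980% of that of Psmb9 and Psmb6. In the 6 cultured libraries, the share of Psmb8 was at most 0.157% and that of Psmb9 at most 0.107%, so that no cultured library reached the GAS range. Psmb10 went the other way. It was 6.92%, 6.75% and 6.97% of Psmb10 and Psmb7 in GAS, 15.3% and 13.0% in MT, 16.7% and 16.9% in MB and 14.5% and 14.8% with lactate. Protocol and cell composition differ between GAS and culture and cannot be told apart from these differences. The genes listed for GAS and for culture differ too, with 36842 in both lists, while the same exonic lengths were used for both.

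**Figure D4:**
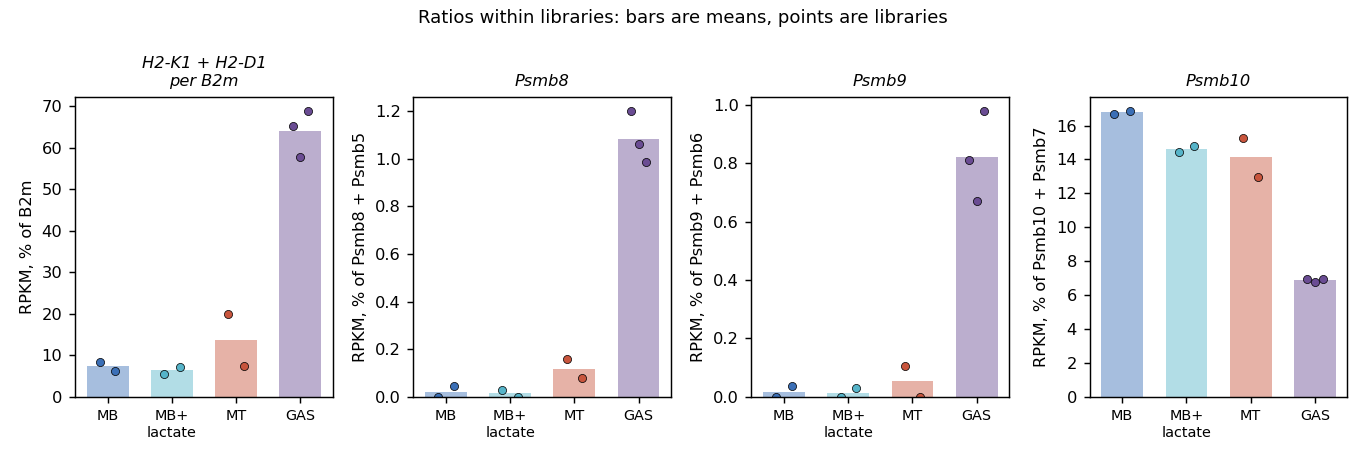
Ratios of RPKM values within libraries, with bars for group means and points for libraries, each axis starting at 0. From left, H2-K1 and H2-D1 as a percentage of B2m (57.7 to 68.9 in GAS, 5.50 to 19.9 in culture), Psmb8 of Psmb8 and Psmb5, Psmb9 of Psmb9 and Psmb6, and Psmb10 of Psmb10 and Psmb7. The first 3 are highest in GAS and the Psmb10 share is lowest there.

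GAS also had heavy chain genes that were near absent from the cultures. H2-Q4, H2-Q6, H2-Q7 and H2-Q10 together made up 14.3%, 9.54% and 11.9% of the RPKM of all class I heavy chain genes in GAS, and 0.136% in MT replicate 1 and 0% in the other cultured libraries. H2-Q4 alone had 269, 153 and 198 counts in GAS and 1 count in the 6 cultured libraries together. H2-D1 was 40.3% to 43.0% of the heavy chain RPKM in GAS, 49.7% to 59.6% in MB with and without lactate and 39.3% to 40.7% in MT.

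Markers of other cells were present in GAS beside these genes. The MHC class II genes, which mark professional antigen-presenting cells, summed to 68.6 to 83.9 CPM in GAS, with Cd74 at 26.5 to 35.8 CPM, and to at most 4.92 CPM in the cultures other than MT replicate 1, which had 14.4. H2-Aa, H2-Ab1, H2-Eb1 and Cd74 had 0 counts in all cultured libraries but MT replicate 1, in which H2-Eb1 was at 0 as well. The 12 leukocyte markers summed to 63.3 to 74.3 CPM in GAS, where 11 of 12 were detected and Cd3e was at 0 in all libraries, and Ptprc was at 2.23 to 3.45 CPM. The 8 endothelial markers summed to 190 to 214 CPM and the fibroblast markers to 560 to 649 CPM. The part of these cells in the class I, H2-Q and immunoproteasome levels of GAS was not tested. The muscle markers Acta1, Ckm, Myh4 and Ttn were the leading genes of their list in GAS.

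**Figure D5:**
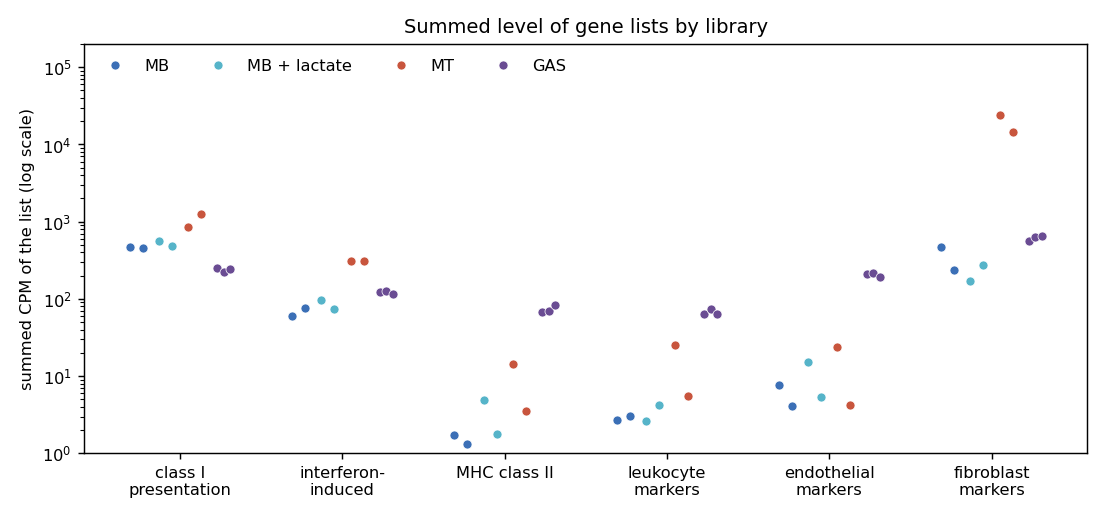
Summed CPM of 6 gene lists in each library on a log scale. Points are libraries. The 9 class I presentation genes sum to 222 to 251 CPM in GAS and to 842 and 1274 in MT. Of these MT sums, 391 and 912 CPM are B2m, which was not called higher in MT. MHC class II, leukocyte and endothelial markers are highest in GAS and fibroblast markers are highest in MT. GAS and culture were not tested against each other.

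Across the 6 cultured libraries, the members did not all follow one pattern. Pearson's r between a gene's log2(CPM + 1) and the mean of the 9 standardised profiles, of which the gene is itself a part, was 0.96 for Tap2, 0.95 for H2-K1, 0.95 for H2-D1 and 0.94 for Tapbp. It was 0.81 for Psmb8, 0.62 for Nlrc5, 0.61 for Tap1, 0.60 for Psmb9 and 0.43 for B2m. Outside the members, the genes most like this mean among 10266 with a mean CPM of at least 5 were Snrpn (0.998), Slc39a1 (0.998), Hscb (0.997), Nudt18 (0.994) and Sec16b (0.992). With 6 libraries, of which the MT pair stands apart from the rest, these coefficients mainly describe the contrast of MT with MB.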

How the data were processed

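RNA was sequenced from GAS (3 libraries) and from MB, MT and lactate-treated MB (2 each). The authors trimmed reads with Trim Galore 0.6.6, aligned them to mm10 with HISAT2 2.2.1 and counted them on genes with featureCounts (Subread 2.0.1), as the submitters' processing notes and the methods give it. They deposited raw counts for each gene without normalization, and these authors' counts were the only values used. Annotation release, strand and handling of reads with several alignments are not given in the sources used here. Names, coordinates and exonic lengths came from GENCODE M21 on the same assembly, and promoters from RefSeq GRCm38.p6.

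Counts were tested with edgeR 4.0.16 in R 4.3.3 (filterByExpr, TMM, quasi-likelihood, Benjamini-Hochberg) in separate fits for MT against MB (adjusted p under 0.05) and lactate against control (p under 0.01), both with an absolute log2FC over 0.5. No replicate term entered these fits. CPM used TMM for GAS and cultures separately, and RPKM divided CPM by exonic length. Intervals are 95%. Ratios of low counts used exact binomial intervals. The procedure was tested on simulated data with 1 fixed spread for all genes and without the broad detection of MT replicate 1. That run does not measure error rates in these data. Python 3.11.15, pandas 2.3.3, scipy 1.17.1 and matplotlib 3.10.9 were used for tables, motif matches and figures.

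The 9 genes and the gene lists were chosen with earlier results of these data known. Named are the 9 genes, list genes past a threshold, the 2 most expressed genes of each list in GAS and in MB, genes named for their role, and the 5 genes most alike in pattern. H2-T22, H2-M3, Stat2, H2-Q4, the other class II genes and genes that overlap a member were named beyond this rule, after their values were seen. One gene that meets the rule, and the promoter motif named for it, are not reported here. Alternatives were RLE size factors, DESeq2 1.42.0, the likelihood ratio test, other filters and thresholds, a replicate block, one fit of all 6 cultured libraries, summed heavy chain counts and leaving out each library.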

Additional observations from a re-analysis of the deposited data

How the results depend on the processing

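The 3 calls in MT (H2-K1, Tap2, Tapbp) were made under each alternative that tested them singly except without MT replicate 1, so that leaving out each replicate in turn gave 1 to 3 calls. The log2FC of Tap1 ranged from -0.19 to 1.16 over these fits and was also below 0 (-0.0027) without MB replicate 2. For lactate, 0 members were called under every alternative, and signs of values near 0 turned. With RLE size factors and with DESeq2 the log2FC of H2-D1 was 0.04 (0.0439 in both), and with summed heavy chain counts that of H2-K1 and H2-D1 was 0.0403. Leaving out each replicate gave -0.36 to 0.22 for H2-K1, -0.15 to 0.21 for H2-D1, -0.60 to 0.86 for Tap1, -0.29 to 0.64 for Tap2 and -0.42 to 0.37 for Tapbp. The cause of these turns was not tested. From raw counts without length, the share of Psmb8 was 3.95% in GAS, 0.439% in MT, 0.0825% in MB and 0.0519% with lactate, that of Psmb9 in GAS 1.59%, and that of Psmb10 3.55%, 7.58%, 9.13% and 7.87%. GAS kept the highest Psmb8 share and the lowest Psmb10 share.

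Samples with the same replicate number deviated with a correlation of -0.117 for MT and MB (12921 genes) and 0.712 for lactate and control MB (11804 genes). With 2 pairs these are numbers only, not a stated pairing. With the number as a replicate block, 3 members were called in MT and 1447 genes higher and 824 lower, against 1425 and 887 without it. Among the other genes named, the block gained H2-T22 (adjusted p = 0.0493) and Stat2 (0.0436) and lost Ifngr2 (0.0581). With crossed numbers, an alternative chosen after seeing the data, these were 1192 and 867. For lactate, the replicate block gave 0 called members and, at an unadjusted p under 0.01, 7 genes higher and 6 lower against 0 and 0. Leaving out MB replicate 2 gave 176 higher and 1 lower at this threshold. Over all genes in MT against MB, leaving out each replicate in turn gave 962 to 4118 genes higher and 270 to 1570 lower. Psmb8, Psmb9 and Nlrc5 did not pass the filter in culture, and differences in them within their counting intervals were not detectable at this depth.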
